A study of Homo sapiens with 2 samples.

Results

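The insulin-like growth factor (IGF) binding proteins and the receptors for IGFs and insulin were described on 2 expression arrays, 1 from each of a pair of human kidney cancer lines. The set held 10 genes, the 7 binding-protein genes IGFBP1 to IGFBP7 and the 3 receptor genes IGF1R, IGF2R and INSR, out of 19775 genes named by the annotation. Its members were chosen by name, as every probe set annotated to 1 of these symbols and to no other gene, which gave 29 of 41091 single-gene probe sets. The first array is labelled 786-VHL, a line made from 786-O that carries a functional VHL allele. The other array is labelled 786-O, a clear-cell renal carcinoma line whose VHL allele is mutated. The labels do not say how VHL was brought into the cells or whether 786-VHL is 1 clone or a pool, and they name no treatment, infection or time for either array. With 1 array per line no test was possible and no difference has a replicate check.

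IGF-I and IGF-II are secreted growth factors that act through the receptor tyrosine kinases encoded by IGF1R and INSR. In tissue fluid they are held by the binding proteins IGFBP1 to IGFBP6, which can keep the ligands from the receptors or carry them there, while the product of IGFBP7 binds IGFs only weakly. IGF2R encodes a receptor without kinase activity that takes up IGF-II for breakdown in lysosomes. The VHL protein recognises the alpha subunits of the hypoxia-inducible factors (HIF) and has them tagged with ubiquitin for breakdown, and IGFBP1 and IGFBP3 are known as hypoxia-responsive genes in other cells.

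Each array gave 54613 intensities in arbitrary units, with medians of 22.58 on the array labelled 786-VHL and 21.97 on the array labelled 786-O. The median over the values of both arrays, 22.3, served as a floor, and a probe set was called measured where at least 1 of its values exceeded that floor. Differences are log2(786-VHL + 16) minus log2(786-O + 16), with a positive sign for a higher 786-VHL value, and the added 16 understates the differences of dim probe sets. The brighter VHL probe set had 15.96 on the array labelled 786-VHL, against 28.85 on the array labelled 786-O, and the other had 7.96 on the array labelled 786-VHL and 6.32 on the array labelled 786-O. The brighter VHL probe set, above the floor on the array labelled 786-O alone, was thus lower on the array labelled 786-VHL, by -0.49. The other was below the floor on both arrays and gave no direction. At levels this near the floor the VHL probe sets do not check which line is which. All directions below are taken from the labels. All 10 kidney and epithelial markers with a probe set were measured, among them PAX8, at 1068 on the array labelled 786-VHL against 1521 on the array labelled 786-O. The leukocyte markers PTPRC, CD3E and CD14 were below the floor on both arrays.

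The 3 members that were at least 2-fold apart between the arrays were all binding proteins, and they went in both directions. IGFBP7 was 4.91-fold to 6.24-fold lower on the array labelled 786-VHL by its bright probe sets, IGFBP6 was 3.52-fold higher and IGFBP1 was at least 2.04-fold lower. IGFBP3, IGFBP4, IGFBP5, IGF1R and IGF2R were measured and less than 2-fold apart, and IGFBP2 and INSR lay below the floor on both arrays. Of the 29 probe sets 15 were measured, 10 of them above the floor on both arrays, 3 only on the array labelled 786-VHL and 2 only on the array labelled 786-O. Of the 15, 1 was higher by 2-fold or more on the array labelled 786-VHL, against 1.42% of 24414 measured single-gene probe sets, and 3 were at least 2-fold lower, against 2.7%. By gene, 1 of 8 measured members was 2-fold or more higher and 2 were 2-fold or more lower, beside 1.54% and 2.18% of 13291 measured genes. Of the lower genes, IGFBP1 passed the floor through the array labelled 786-O alone. The members were chosen with earlier results of these data known, so these counts only describe the set. The median difference of the 8 members was 0.06 and that of all measured genes 0.05.

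**Figure D1:**
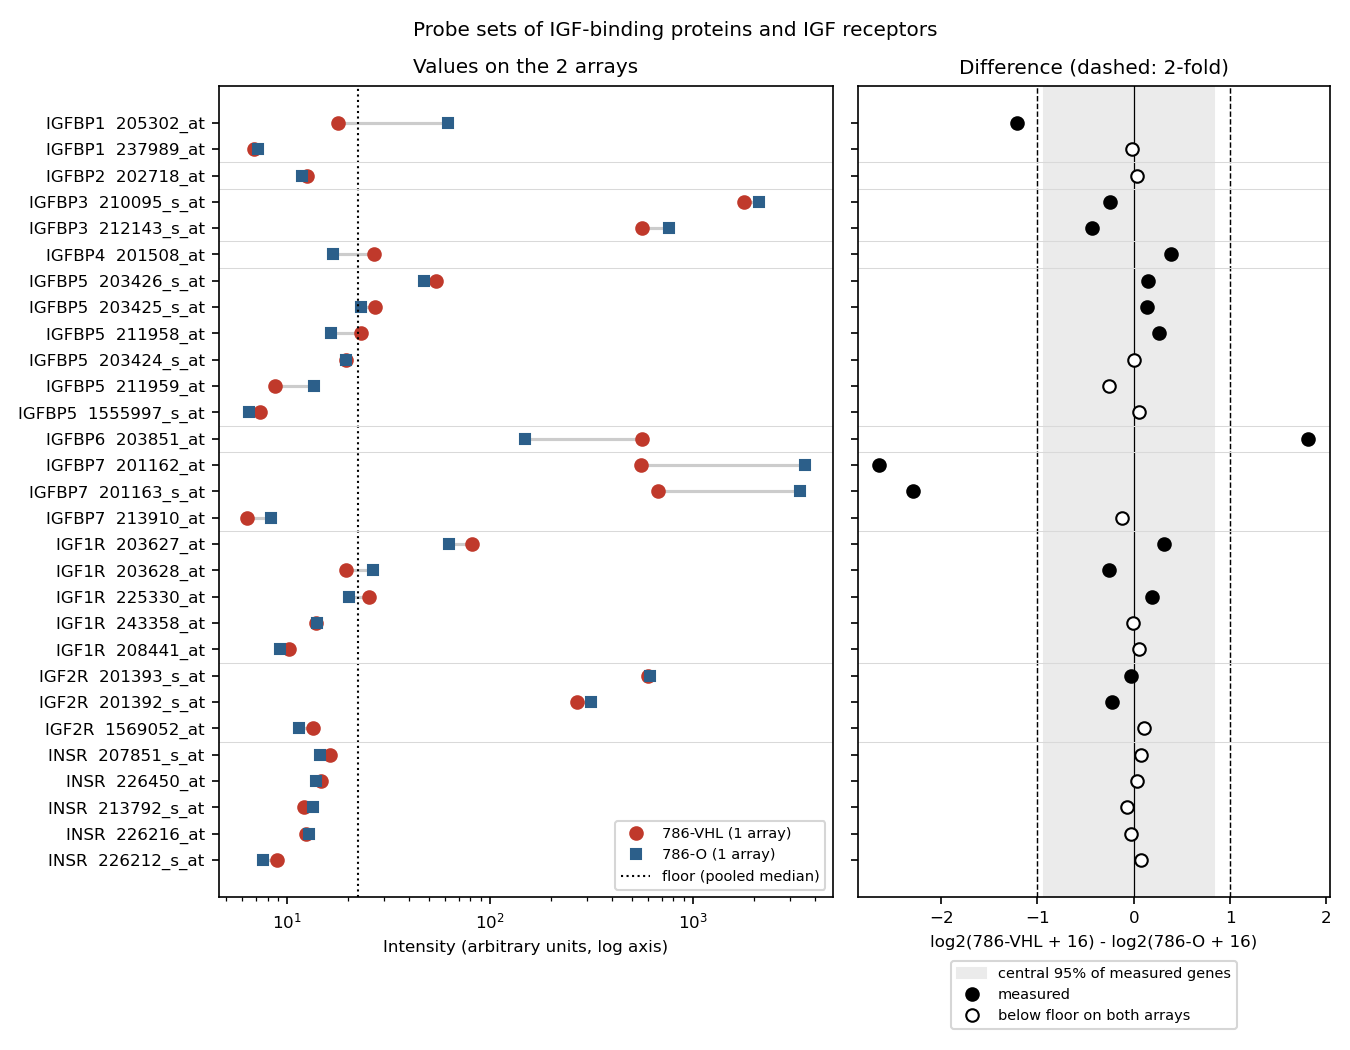
Left, intensity of each of the 29 probe sets (arbitrary units, log axis) on the array labelled 786-VHL (circles) and the array labelled 786-O (squares), 1 array each, with the floor of 22.3 as a dotted line. Right, the log2 difference of each probe set, filled where measured, with the 2-fold lines dashed and the central 95% of measured genes (-0.94 to 0.84) shaded; both bright IGFBP7 probe sets, IGFBP6 and 1 IGFBP1 probe set lie outside the shading.

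IGFBP7, also known as angiomodulin, encodes a secreted protein of vessel walls and basement membranes that binds type IV collagen. Its probe set 201162_at had an intensity of 557 on the array labelled 786-VHL, against 3561 on the array labelled 786-O, a difference of -2.64. Probe set 201163_s_at had 674 on the array labelled 786-VHL, against 3371 on the array labelled 786-O, a difference of -2.30. Both bright probe sets were thus far lower on the array labelled 786-VHL and still far above the floor there. The third IGFBP7 probe set, 213910_at, did not reach the floor on either array, at 6.35 on the array labelled 786-VHL and 8.35 on the array labelled 786-O.

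The only measure of error in these data is how far probe sets of the same gene differ, and it holds nothing about the spread between arrays or cultures. Over 6436 genes with several measured probe sets its pooled SD was 0.33 log2 units, and the bright IGFBP7 probe sets were 0.35 apart. Of 162 genes with several measured probe sets that were at least 2-fold lower, 42 (25.9%) had every measured probe set at least 2-fold lower, IGFBP7 among them. That share does not measure the gap between probe sets, since it also depends on their number and on the size of the difference. Counting IGFBP7 itself, 31 of 13291 measured genes (0.233%) had a difference as low as -2.30. Among the 1577 measured genes of mean intensity over 1000, where IGFBP7 lies, 26 (1.65%) were at least 2-fold lower. Vessel and stromal cells are also known for IGFBP7. Both arrays are of cell lines, so markers of such cells are given as levels only. The part of such cells in the IGFBP7 difference was not tested. The summed intensity of 5 endothelial markers was 107 on the array labelled 786-VHL and 86.5 on the array labelled 786-O, with KDR and CDH5 below the floor on both. PECAM1, TEK and VWF were measured at values near the floor and differed by 0.20, 0.12 and 0.32. The summed intensity of 5 fibroblast and pericyte markers was 131 on the array labelled 786-VHL and 110.1 on the array labelled 786-O, with DCN, PDGFRA and PDGFRB below the floor on both. The higher sum rested on LUM, at 37.1 on the array labelled 786-VHL against 5.64 on the array labelled 786-O, since without it the sum was 94.2 on the array labelled 786-VHL and 104 on the array labelled 786-O. RGS5, the other measured marker, differed by -0.40.

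IGFBP6 encodes the binding protein that prefers IGF-II over IGF-I. Its single probe set, 203851_at, had an intensity of 561 on the array labelled 786-VHL, against 148 on the array labelled 786-O, a difference of 1.82. Both values lay well above the floor, but no other probe set checks the difference. It was 1 of 42 measured genes (0.316%) with a difference that high, and 134 of 6475 measured genes of mean intensity 100 to 1000 (2.07%) were at least 2-fold higher. IGFBP6 was the member that differed opposite to IGFBP7 by over 2-fold.

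IGFBP1 encodes a binding protein made mainly in liver that is under the control of insulin and is known to respond to hypoxia. Probe set 205302_at had 17.8 on the array labelled 786-VHL, below the floor, against 62.3 on the array labelled 786-O, a difference of -1.21. Because it passed the floor through 1 array alone, its fold is a lower bound, at least 2.04-fold lower with the dim value set to the floor. A pseudocount of 64 in place of 16 gave -0.63, which is less than 2-fold. The other probe set, 237989_at, was below the floor at 6.89 on the array labelled 786-VHL and 7.20 on the array labelled 786-O and did not check the difference. Among the 5239 measured genes of mean intensity under 100, 92 (1.76%) were at least 2-fold lower. Of the hepatocyte markers ALB was below the floor, at 7.51 on the array labelled 786-VHL and 6.85 on the array labelled 786-O, and so was AHSG, while SERPINA1 was bright, at 1100.0 on the array labelled 786-VHL and 858 on the array labelled 786-O. TTR was dim but above the floor, at 31.5 on both arrays. APOA1 had 25.1 on the array labelled 786-VHL and 20.7, below the floor, on the array labelled 786-O.

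**Figure D2:**
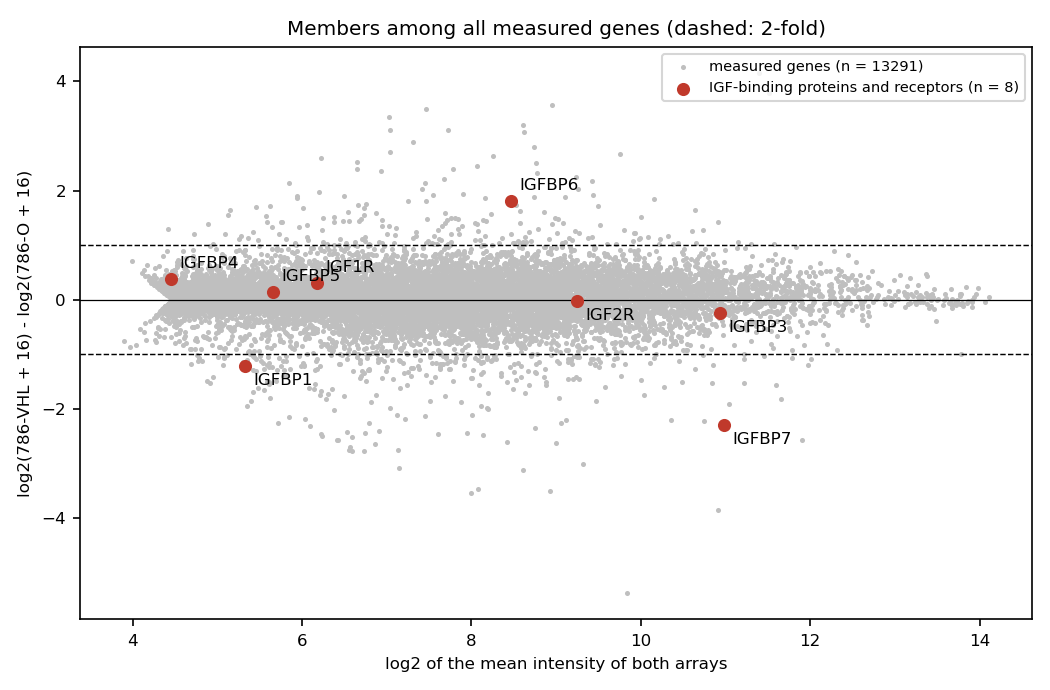
Log2 difference between the array labelled 786-VHL and the array labelled 786-O (vertical axis) against log2 of the mean intensity (horizontal axis) for 13291 measured genes in grey and the 8 measured members in red, 1 probe set per gene, with 2-fold lines dashed. IGFBP7 at -2.30 and IGFBP1 at -1.21 lie below the lower line, IGFBP6 at 1.82 above the upper one, and the other 5 members between them.

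IGFBP3 encodes the main IGF carrier of blood plasma and is known to be raised in clear-cell renal carcinoma. Probe set 210095_s_at had 1786 on the array labelled 786-VHL, against 2123 on the array labelled 786-O, a difference of -0.25. Probe set 212143_s_at had 561 on the array labelled 786-VHL, against 762 on the array labelled 786-O, a difference of -0.43. Both were somewhat lower on the array labelled 786-VHL and far above the floor on each array. The first value was no extreme among all genes, since 18.8% of measured genes were at least as low.

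IGFBP5, whose product binds matrix and bone mineral, had 6 probe sets and IGFBP4, whose product chiefly restrains IGF action, had 1. The brightest IGFBP5 probe set, 203426_s_at, had 53.9 on the array labelled 786-VHL, against 47.2 on the array labelled 786-O, and the 3 measured ones differed by 0.14 to 0.27. The other 3 IGFBP5 probe sets were below the floor, and 203424_s_at had the same value, 19.4, on both arrays. Exactly equal values, to every deposited digit, stood at 2127 probe sets (3.89% of all), 1695 of them below the floor. IGFBP4 had 26.9 on the array labelled 786-VHL, against 16.7 on the array labelled 786-O, and was at least 1.12-fold higher with the dim value set to the floor. IGFBP2, whose product is a carrier abundant in fetal life, was below the floor on its only probe set, at 12.5 on the array labelled 786-VHL and 11.8 on the array labelled 786-O. For IGFBP2 these arrays thus gave no measured level in either line.

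Among the receptors none was 2-fold apart. IGF1R, the kinase receptor through which both IGFs signal, had 81.9 on the array labelled 786-VHL, against 62.8 on the array labelled 786-O, by its brightest probe set 203627_at, a difference of 0.31. Its other measured probe sets went opposite ways, 225330_at differing by 0.19 and 203628_at by -0.26, each above the floor on 1 array only. No direction could therefore be given for IGF1R. IGF2R had 603 on the array labelled 786-VHL, against 616 on the array labelled 786-O, by probe set 201393_s_at, and 267 on the array labelled 786-VHL, against 315 on the array labelled 786-O, by 201392_s_at. These IGF2R probe sets differed by -0.03 and -0.23, and no spread between arrays was measured to judge either value. All 5 probe sets of INSR, the insulin receptor gene, were below the floor, from 8.86 to 16.2 on the array labelled 786-VHL and from 7.55 to 14.6 on the array labelled 786-O. An intensity below the floor does not show that the transcript was absent.

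Levels of different members were not compared, because intensities of different probe sets depend on their probes. Promoter sequences were looked up to set the measured members beside the core of the HIF-binding element, since HIF is the factor that VHL controls. The RefSeq table (GRCh38.p14) held windows for 8 of the 10 members, 250 bases before the annotated start, and IGFBP1 and IGFBP7 were not among them. The letters ACGTG and GCGTG were searched on both strands, and CACGTG, which holds a match on each strand, counts as 2 matches. At least 1 match was present in 43.2% of 35116 such windows of all genes. The 3 windows shown are those of IGFBP6, the member that was higher on the array labelled 786-VHL by over 2-fold, and of IGFBP3 and IGF2R, both bright and less than 2-fold apart, with matches in capitals. They lie at chr12:53097417-53097666 on the plus strand for IGFBP6, chr7:45921273-45921522 on the minus strand for IGFBP3 and chr6:159968832-159969081 on the plus strand for IGF2R.
IGFBP6: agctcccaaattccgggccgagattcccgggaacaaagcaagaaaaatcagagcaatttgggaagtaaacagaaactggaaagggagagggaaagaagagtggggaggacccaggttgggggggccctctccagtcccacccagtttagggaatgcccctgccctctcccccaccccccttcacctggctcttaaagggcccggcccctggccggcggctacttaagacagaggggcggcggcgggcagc
IGFBP3: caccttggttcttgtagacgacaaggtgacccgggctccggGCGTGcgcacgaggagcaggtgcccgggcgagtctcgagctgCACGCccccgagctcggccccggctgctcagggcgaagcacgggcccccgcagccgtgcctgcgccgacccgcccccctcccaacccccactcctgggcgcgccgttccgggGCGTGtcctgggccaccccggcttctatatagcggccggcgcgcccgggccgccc
IGF2R: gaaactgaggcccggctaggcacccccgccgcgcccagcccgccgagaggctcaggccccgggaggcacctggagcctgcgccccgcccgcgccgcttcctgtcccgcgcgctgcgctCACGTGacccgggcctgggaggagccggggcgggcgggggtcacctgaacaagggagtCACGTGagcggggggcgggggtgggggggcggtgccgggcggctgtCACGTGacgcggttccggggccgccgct
The IGFBP6 window held 0 matches, the IGFBP3 window 3 and the IGF2R window 6, all within its 3 CACGTG. At least as many matches as in IGFBP3 were present in 7.76% of all windows, and at least as many as in IGF2R in 0.646%. The IGF2R count rests on CACGTG alone, each copy entered as 2 matches, and CACGTG was present in 6.34% of all windows. The window of IGF1R held 5 matches, those of IGFBP4, IGFBP5 and INSR held 0, and of 3 windows of IGFBP2 1 held a match. Whether matches and differences go together was not tested. IGFBP1 and IGFBP7, the members that were at least 2-fold lower, had no window. A match is a description of the letters and not a binding site, and a window without one says nothing of the factor.

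The members' places in the genome were used to see whether their neighbours differed alike. By the order of genes in GRCh38.p14, IGFBP1 and IGFBP3 are next to each other among coding genes on chromosome 7, and IGFBP2 and IGFBP5 on chromosome 2. The adjoining pair IGFBP1 and IGFBP3 differed by -1.21 and -0.25. Of the 5 measured genes on each side of IGFBP7 on chromosome 4 none was 2-fold apart, and their differences ran from -0.72 to 0.36 with a median of -0.03. Around IGFBP6 on chromosome 12 they ran from -0.20 to 0.87, and around IGFBP1 from -0.26 to 0.88, again with none 2-fold apart. Closest to the member's own difference were UBA6 at -0.72 for IGFBP7, EIF4B at 0.87 for IGFBP6 and MYO1G at -0.26 for IGFBP1. None of these was the measured gene next to the member, and distances in bases were not used.

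**Figure D3:**
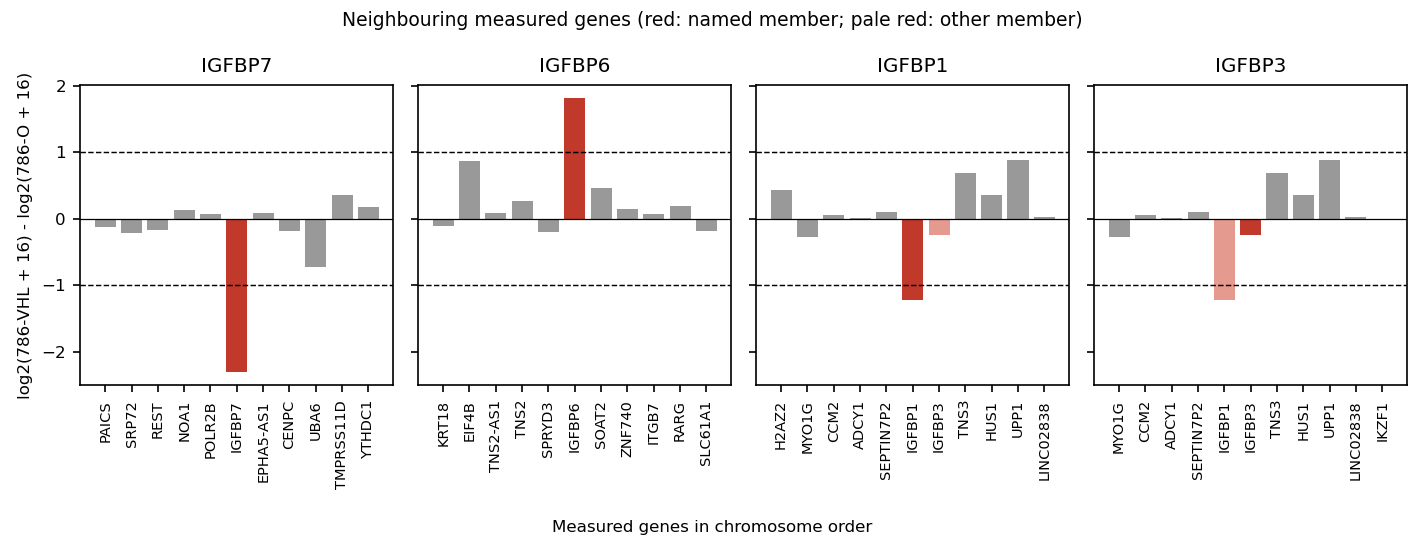
Log2 difference between the array labelled 786-VHL and the array labelled 786-O (bars from 0) of IGFBP7, IGFBP6, IGFBP1 and IGFBP3 in red and of the 5 measured genes on each side in chromosome order, in grey, or in pale red for a neighbour that is itself a member. No neighbour of IGFBP7, IGFBP6 or IGFBP1 reaches the dashed 2-fold lines.

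The rest of the IGF pathway was described in 5 lists. By 1 probe set per gene, none of 52 measured genes of these lists was at least 2-fold apart, beside 3.72% of all measured genes, and their median was -0.03, beside 0.05. By the median over probe sets of each gene the lists' median was 0.020. Of 118 measured probe sets of these genes 4 were at least 2-fold lower, from AKT2, PDPK1 and PRSS23, and 0 were 2-fold higher, beside 2.7% and 1.42% of all measured single-gene probe sets. Of the 52, 23 (44.2%) were higher on the array labelled 786-VHL and 29 lower, where 56.8% of all measured genes were higher. The ligand gene IGF1 had 36.2 on the array labelled 786-VHL, against 31.7 on the array labelled 786-O, and differed by 0.13. IGF2 had no single-gene probe set, since its 3 probe sets are annotated to several genes, and INS was below the floor. INSRR, the gene of an insulin receptor relative, differed by 0.15 and IGFALS, the gene of the subunit that joins IGFBP3 and IGFs in plasma, by 0.03.

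In the list drawn up for IGFBP proteases and their inhibitors, 7 of 10 measured genes were lower on the array labelled 786-VHL, with a median of -0.20. Whether each listed protease, PRSS23 and FURIN among them, cuts a binding protein was not tested. STC2, which encodes an inhibitor of the IGFBP protease PAPP-A, had 230.2 on the array labelled 786-VHL, against 366 on the array labelled 786-O, and its 2 probe sets both differed by -0.63. The related STC1 had 21.6 on the array labelled 786-VHL, below the floor, against 41.4 on the array labelled 786-O, a difference of -0.61, but its measured probe sets reached 0.06. ADAM12, which encodes a protease that cuts IGFBP3 and IGFBP5, differed by -0.78 with other probe sets up to 0.05. PAPPA itself differed by -0.27. The genes that were higher on the array labelled 786-VHL were HTRA1, ADAM28 and FURIN, with differences of 0.47, 0.41 and 0.16.

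Among 17 measured receptor adaptors and brakes 10 were higher and 7 lower on the array labelled 786-VHL, and the median was 0.03. IRS1, the adaptor that couples IGF1R and INSR to PI3K, had 688 on the array labelled 786-VHL, against 475 on the array labelled 786-O, and differed by 0.52, with the lowest of its probe sets at 0.09. MDM2 differed by -0.38 and PTPN11, the gene of the phosphatase SHP2, by -0.33, but both had probe sets with the opposite sign. In the list of PI3K, AKT, mTOR and FOXO 14 of 19 measured genes were lower and 5 higher, with a median of -0.12. PIK3R3, which encodes a regulatory subunit of PI3K, had 114 on the array labelled 786-VHL, against 56.7 on the array labelled 786-O, a difference of 0.84 on its single measured probe set. FOXO3 and FOXO1, transcription factors that AKT keeps out of the nucleus, differed by -0.62 and -0.44, and all their measured probe sets were lower on the array labelled 786-VHL.

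**Figure D4:**
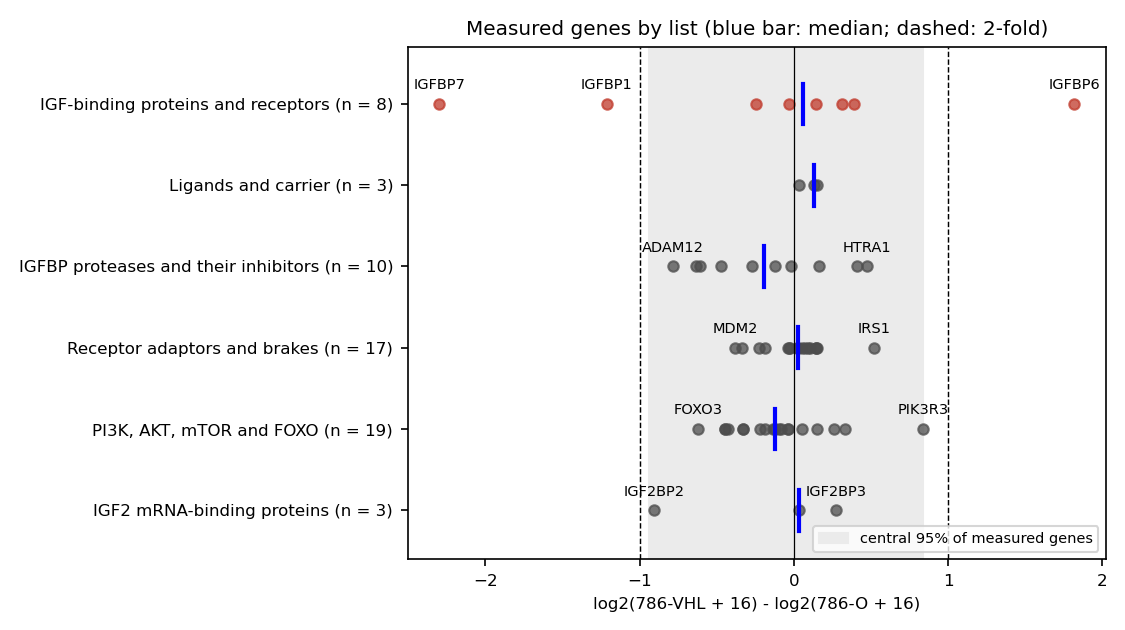
Log2 difference between the array labelled 786-VHL and the array labelled 786-O of each measured gene (points, 1 probe set per gene) for the 8 measured members in red and the 5 pathway lists in grey, with medians as blue bars, 2-fold lines dashed and the central 95% of measured genes shaded. Points past the dashed lines are IGFBP7, IGFBP1 and IGFBP6, and no pathway gene reaches them.

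The difference of each binding protein was set out under other ways of treating the values, and IGFBP7 and IGFBP6 were over 2-fold apart under each of them. IGFBP7 lay between -2.64 and -2.22 in the settings tried and IGFBP6 between 1.56 and 1.92. IGFBP3 stayed between -0.34 and -0.24 and had no value without suffixed probe sets, since both of its own end in _s_at. IGFBP4 lay between 0.16 and 0.65 and IGFBP5 between 0.084 and 0.27. IGFBP1, below the floor on the array labelled 786-VHL, lay between -1.75 and -0.63 and dropped out of the measured genes with a floor at the 75th percentile.

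**Figure D5:**
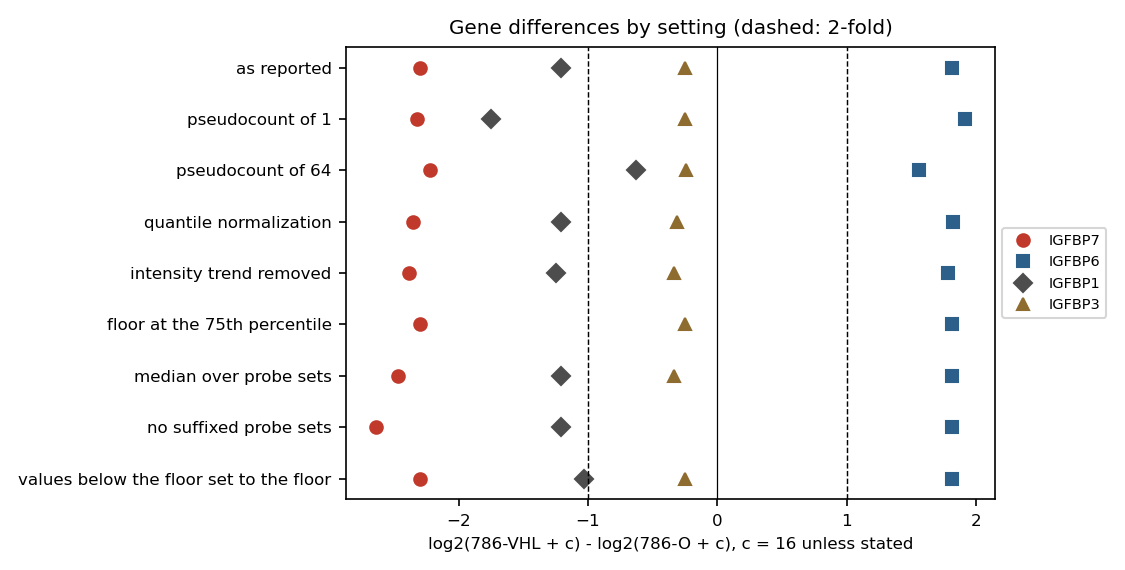
Log2 difference between the array labelled 786-VHL and the array labelled 786-O (horizontal axis) of IGFBP7, IGFBP6, IGFBP1 and IGFBP3 under each setting (vertical axis), with 2-fold lines dashed and c the pseudocount. IGFBP7 and IGFBP6 stay past the lines throughout, IGFBP1 falls within them with a pseudocount of 64 and has no point at the 75th percentile floor, and IGFBP3 stays within them.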

How the data were processed

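Total RNA of 2 cell lines was extracted with Trizol and labelled with biotin per the labels' protocols, 1 array per line. The authors deposited an intensity for each probe set of each array, and the range of the values shows a linear scale. Only R 2.10 is named in the submitters' processing notes. How background, normalization and probe summary were handled is not given in the sources used here. Such steps can shrink or shift differences.

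Of 54613 probe sets 41091 named 1 gene, 1801 several and 11721 none, and 41037 took current symbols by Entrez gene number. Values were used as log2(value + 16). Each gene was represented by the probe set with the highest mean log2 value and measured where the higher array exceeded the pooled median, 22.3. A difference of 2-fold was the size rule, with no test, standard error or p-value. Samples were grouped by title. Named were all members, IGF1, IGF2 and up to 3 measured genes of each list with the largest difference, and others were chosen after their values were seen. Members and lists were chosen with earlier results of these data known. Alternatives were pseudocounts of 1 and 64, quantile normalization, removal of the intensity trend (lowess), other floors, 1.5-fold, the median over probe sets and no probe sets ending in _s_at, _x_at or _a_at. Values set to the floor were added after the data were seen. The procedure was tested on simulated data. Python 3.11.15, numpy 2.4.6, pandas 2.3.3, statsmodels 0.14.6 and matplotlib 3.10.9 were used.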

Additional observations from a re-analysis of the deposited data

How the results depend on the processing

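No paired analysis was possible because there was a single array of each line, which also left no replicate to drop. Of 186 alternative values of member probe sets and genes 81 were left exactly as they were. Part of these come from a fold threshold or a floor that only selects probe sets, which cannot alter a difference. The rest come from settings that did not touch the value, such as a median over a single measured probe set. Of the other 105, 100 moved by less than the SD of 0.33 within genes, and 32 of the 105 belong to members at least 2-fold apart, of which 30 were still 2-fold and none changed its sign. A probe set that stands for its gene entered these counts both as a probe set and as a gene, so they are not counts of separate values. IGFBP1 was at -1.75 with a pseudocount of 1 and at -0.63 with a pseudocount of 64, where, as with the floor at the 75th percentile, 1 member gene was at least 2-fold lower. IGFBP7 was at -2.64 without suffixed probe sets, which leaves only its other bright probe set. With no floor all 29 member probe sets counted as measured, and with the floor at the 75th percentile 7 did. At 1.5-fold 1 gene of the pathway lists was higher and 5 were lower, and their median difference was 0.020 over the median of probe sets. Signal near the floor limits IGFBP1, IGFBP4, IGFBP5 and IGF1R, and IGFBP2 and INSR gave no measured value. Causes other than fewer probe sets, another floor or a pseudocount that shrinks dim values were not tested.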

Other observations

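The IGF2 mRNA-binding proteins share their abbreviation with the IGF-binding proteins but act inside the cell on transcripts. IGF2BP2 had 443 on the array labelled 786-VHL, against 845 on the array labelled 786-O, a difference of -0.91, and its other probe set differed by -0.26. IGF2BP3 went the other way on all 3 of its probe sets, with differences of 0.27 to 0.55. IGF2BP1 lay near the floor, at 23.96 on the array labelled 786-VHL and 22.96 on the array labelled 786-O.

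Probe sets of some pathway genes, chosen after their values were seen, disagreed among themselves. PDPK1, which encodes the kinase that activates AKT, had 18.97 on the array labelled 786-VHL, against 197 on the array labelled 786-O, by probe set 204524_at. The first value is below the floor, so it was at least 5.55-fold lower with the dim value set to the floor, while its brightest probe set differed by -0.44 and another by 0.21. AKT2 had 22.3 on the array labelled 786-VHL, just above the floor, against 117 on the array labelled 786-O, by 203809_s_at, a difference of -1.79. Its probe set 211453_s_at differed by -1.55, its brightest by -0.19, and 226156_at and 236664_at by 0.16 and 0.07. PRSS23, a serine protease gene, had 275 on the array labelled 786-VHL, against 637 on the array labelled 786-O, by 226279_at, a difference of -1.17, while its brightest probe set differed by -0.47 and another by 0.15. What these probe sets detect was not tested.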
